A study of Mus musculus with 36 samples.

Results

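The genes described here are 37 hypoxia and glycolysis genes of the mouse, taken by gene symbol from a table of 21705 genes in 36 libraries, and all 37 were found. They comprise 3 carriers of glucose and lactate, 8 genes of the hexokinase and phosphofructokinase steps, 9 of lower glycolysis, 1 of pyruvate routing, 4 of oxygen sensing, 2 secreted signals, 3 enzymes of collagen and protein folding, 2 of mitochondrial clearance and 5 of pH, growth and stress control. RNA was sequenced from 9 UPPL primary bladder tumours, which carry Upk3a-CreERT2 with p53f/f and Rosa26LSL-Luc, so that a Cre recombinase is made from the uroplakin 3a promoter of superficial urothelial cells. The 11 BBN primary bladder tumours came from animals of control genotype given the bladder carcinogen N-butyl-N-(4-hydroxybutyl)nitrosamine. Tumours grown from lines numbered 4 of UPPL1541 (labelled with the UPPL alleles), 2 of BBN963 and 4 of MB49, an established mouse bladder cancer line, all labelled untreated. The cultures were 1 each of UPPL1541, BBN963 and MB49 and 3 lines named KT, a name that the labels do not explain. Each set of line-derived tumours stands for 1 line, and the age, sex and strain of the animals and the host of the line-derived tumours are not given in the sources used here.

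Cells short of oxygen stabilise the transcription factor HIF, whose alpha subunit (HIF-1 alpha, from Hif1a) is otherwise hydroxylated by the prolyl hydroxylases Egln1 and Egln3 and degraded. HIF then raises carriers, enzymes of glycolysis, vessel signals and mitophagy receptors, among them Egln3 itself. Because that control acts on the protein, the mRNA of Hif1a need not follow the activity of HIF. In carcinomas, including those of the bladder, these genes are also raised by growth signals in the presence of oxygen, and fibroblasts and leukocytes of a tumour use them as well.

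HIF binds DNA at a short core, ACGTG or GCGTG, so both strands of the 250 bases before each RefSeq start site (build GRCm38.p6) were searched for those letters. Of the 37 genes 34 had a window, and 31 of these (91.2%) held a match in at least 1 window, against 41.5% of 27025 genes. A gene with more windows has more places for a match. Counted by window, 76.9% of the 52 windows of these genes held a match, against 38.6% of all 32851 windows. A window with 3 or more matches was present for 11 of the 34 genes (32.4%) and for 7.54% of all genes. The windows of these genes also had more G and C, with a median of 61.0% against 52.4% over all windows, and both motifs contain mostly those bases, so the shares describe letters and not binding sites. The palindrome CACGTG, which is also the E-box read by MYC and its antagonists, holds ACGTG on both strands and counts as 2 matches. The number of matches was not compared with the size of any difference in expression. Between tumours and cultures Tpi1, with no match, differed by more than Ldha in the fit over the lines. Windows of 5 genes are shown in the direction of transcription with matches in capitals. Bnip3, Ankrd37 and Ldha (1 of its 2 windows) are dense windows of genes that were higher in tumours than in cultures. Egln3 is the gene with the smallest adjusted p between BBN963 and each other line, and Tpi1 is one with no match that was also higher in tumours than in cultures.
Bnip3, chr7:138909507-138909756, minus strand: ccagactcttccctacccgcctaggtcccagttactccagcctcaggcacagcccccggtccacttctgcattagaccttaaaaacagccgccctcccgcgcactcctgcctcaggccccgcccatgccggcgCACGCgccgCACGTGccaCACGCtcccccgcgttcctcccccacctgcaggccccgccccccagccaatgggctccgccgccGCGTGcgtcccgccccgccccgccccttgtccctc
Ankrd37, chr8:45999851-46000100, minus strand: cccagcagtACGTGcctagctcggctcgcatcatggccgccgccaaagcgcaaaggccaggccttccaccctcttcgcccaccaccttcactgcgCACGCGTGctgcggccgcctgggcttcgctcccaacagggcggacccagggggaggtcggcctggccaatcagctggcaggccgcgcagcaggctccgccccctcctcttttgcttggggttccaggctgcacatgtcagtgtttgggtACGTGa
Ldha, chr7:46845554-46845803, plus strand: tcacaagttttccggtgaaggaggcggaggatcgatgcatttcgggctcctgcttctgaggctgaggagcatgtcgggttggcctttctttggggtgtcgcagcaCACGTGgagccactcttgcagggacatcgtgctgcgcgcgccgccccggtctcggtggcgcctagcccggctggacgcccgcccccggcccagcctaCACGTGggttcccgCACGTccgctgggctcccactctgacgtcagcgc
Egln3, chr12:54203875-54204124, minus strand: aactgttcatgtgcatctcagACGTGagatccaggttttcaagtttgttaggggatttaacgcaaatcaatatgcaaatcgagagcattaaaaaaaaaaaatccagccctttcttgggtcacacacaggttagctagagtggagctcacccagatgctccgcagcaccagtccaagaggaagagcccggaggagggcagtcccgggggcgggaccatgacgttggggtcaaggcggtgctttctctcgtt
Tpi1, chr6:124814159-124814408, minus strand: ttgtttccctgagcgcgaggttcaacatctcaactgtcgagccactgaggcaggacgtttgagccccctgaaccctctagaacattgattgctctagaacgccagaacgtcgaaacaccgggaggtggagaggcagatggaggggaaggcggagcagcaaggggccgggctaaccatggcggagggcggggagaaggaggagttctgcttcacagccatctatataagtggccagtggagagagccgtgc
The windows of Bnip3 and Ldha held 5 matches each, that of Ankrd37 held 4 and that of Egln3 held 1. The coordinates belong to GRCm38.p6, whereas the deposited values were made on mm9, so only gene identifiers link the sequences with the values below.

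Libraries held 9.29 to 17.9 M reads, recovered from the deposited units, and no library stood apart in its total. In the cultures the most frequent low value was 1 read, while in tumours it was 2 to 19 reads, and 5 tumour libraries reached 10 or more (UPPL1595, UPPL1597, BBN962, the first BBN963 and the first MB49 line-derived tumour). These 5 are called coarse libraries below. Trp53, the floxed gene, was at 30.4 to 158 deposited units in UPPL primary tumours against 796 to 2266 in BBN primary tumours, and it was at 50.4 in the UPPL1541 culture, whose genotype label reads control. The summed level of 12 urothelial and basal epithelial markers was 166498 to 656380 units in UPPL and 236547 to 549399 in BBN primary tumours, 257819 to 345704 in UPPL1541 and 390313 to 405429 in BBN963 tumours, but 16175 to 26320 in MB49 tumours and 7608 in the MB49 culture, where 6 of the 12 were at 0. In bulk tissue fewer cells of a type and less RNA per cell cannot be told apart. Values below are deposited units, scaled to the upper quartile of each library, and fold changes are on the log2(value + 1) scale. A gene is said to be higher or lower only where limma's moderated test over all genes gave a Benjamini-Hochberg adjusted p under 0.05.

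**Figure D1:**
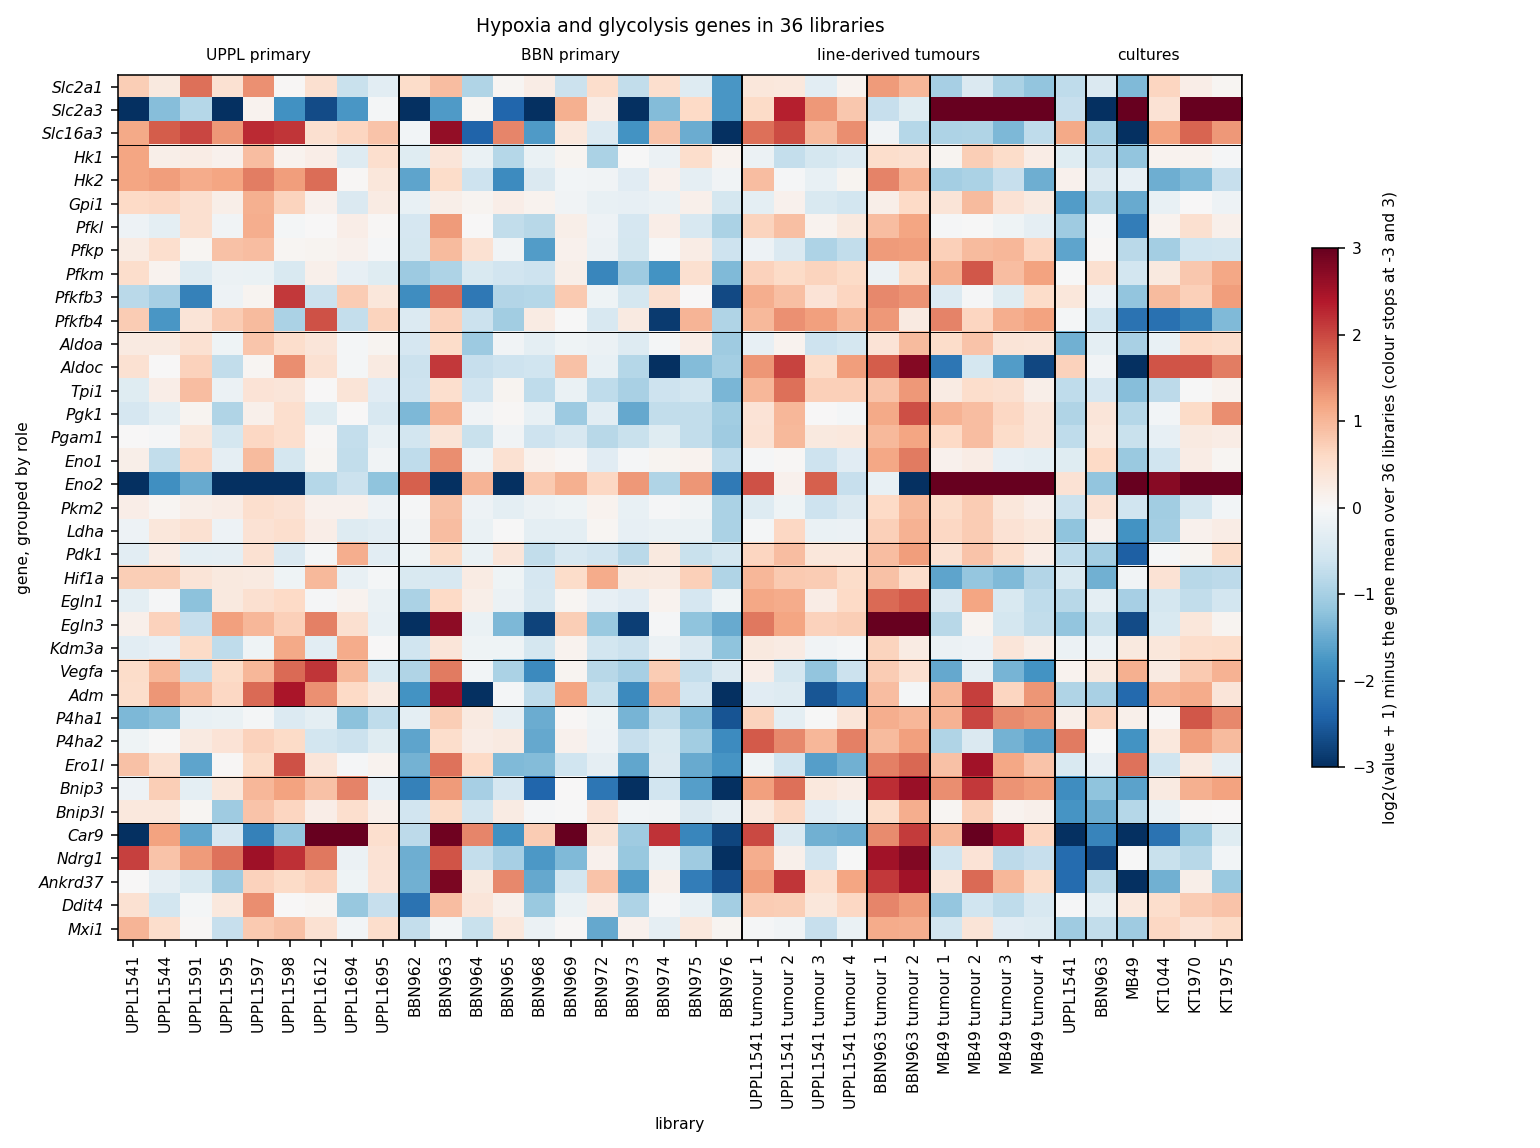
Log2(value + 1) of the 37 genes (rows, grouped by role) in the 36 libraries (columns, grouped by model), each gene centred on its mean over all libraries and coloured from blue (lower) to red (higher). The columns of both BBN963 line-derived tumours are red in most rows, the cultures of UPPL1541, BBN963 and MB49 are mostly blue, and Slc2a3 and Eno2 are dark red in MB49. Both genes were also high in the cultures KT1970 and KT1975.

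The first comparison asks how tumours of the genetic model differed from carcinogen tumours. Of the 37 genes 36 passed the filter on low values, and 9 of them were higher in UPPL than in BBN primary tumours: Hk2, Ndrg1, Bnip3, Tpi1, Slc16a3, Vegfa, Gpi1, Adm and Aldoa. None was lower by limma, at an unadjusted p under 0.05 or by edgeR, whereas 15 were higher at an unadjusted p under 0.05 and 11 by edgeR. Among all 12818 genes tested 5.71% were higher and 12.8% lower. The median log2 fold change was 0.49 over the 36 genes, of which 33 were positive, and -0.19 over all genes. Of the 16 tested genes of glycolysis 4 passed, and the glucose carriers Slc2a1 and Slc2a3, Hif1a, Ldha, Pgk1 and Car9 did not pass.

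Hk2, the inducible hexokinase that traps glucose in the cell, had 2636 to 8241 with a median of 5856 in UPPL tumours, against 690.3 to 3761 with a median of 2119 in BBN tumours. For Hk2 the log2 fold change was 1.498 (SE 0.27, adjusted p = 9.7e-04). All but 2 of the UPPL tumours had more Hk2 than any BBN tumour, and UPPL1694 with 2636 and UPPL1695 with 3222 were the exceptions. Gpi1, the isomerase of the next step, had 4553 to 12840.4 with a median of 8559 in UPPL tumours, against 4249 to 7108 with a median of 5708 in BBN tumours. For Gpi1 the log2 fold change was 0.46 (SE 0.16, adjusted p = 0.041). In Gpi1 6 UPPL tumours exceeded every BBN tumour. The other genes of these steps had positive values that did not pass, from 0.35 for Pfkl to 0.71 for Pfkm: the constitutive hexokinase gene Hk1 (0.49, adjusted p = 0.088), Pfkp (0.49), and the genes Pfkfb3 (0.41) and Pfkfb4 (0.61), whose enzymes set the level of the activator of phosphofructokinase. Pfkl, Pfkp and Pfkm encode the liver, platelet and muscle forms of phosphofructokinase.

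In lower glycolysis Tpi1, triose-phosphate isomerase, had 10410.3 to 25362 with a median of 15429 in UPPL tumours, against 5160.0 to 18942 with a median of 8630.2 in BBN tumours. For Tpi1 the log2 fold change was 0.70 (SE 0.21, adjusted p = 0.024). Aldoa, the aldolase that precedes it, had 16199 to 31826 with a median of 21507 in UPPL tumours, against 8351 to 26199 with a median of 15766 in BBN tumours. For Aldoa the log2 fold change was 0.57 (SE 0.20, adjusted p = 0.047). For each of them 1 UPPL tumour exceeded every BBN tumour, so the groups overlapped widely. Ldha, which makes lactate, had 15433 to 28430.0 with a median of 23033 in UPPL tumours, against 10323 to 38063 with a median of 17538 in BBN tumours (0.24, adjusted p = 0.4), and Pgk1, phosphoglycerate kinase, had 601 to 1606 with a median of 917 in UPPL tumours, against 387 to 2324 with a median of 675 in BBN tumours (0.35, adjusted p = 0.36). The ranges of Ldha and Pgk1 in UPPL tumours lay inside those of BBN tumours. The mutase Pgam1 (0.52, adjusted p = 0.057), the aldolase Aldoc (0.84), enolase Eno1 (-0.082) and the pyruvate kinase gene listed as Pkm2 (0.29) did not pass either. Eno2, the neuronal enolase, was under the filter, at 0 to 11.0 with a median of 4.22 in UPPL tumours, against 0 to 64.3 with a median of 31.6 in BBN tumours. Pdk1, whose kinase keeps pyruvate out of mitochondria, gave 0.27, adjusted p = 0.38. Pseudogenes or near copies of Ldha, Pgk1, Aldoa, Pgam1, Bnip3l and Eno1 are annotated, so the level of these genes is uncertain where counting could divide reads among copies, and the row Pkm2 does not separate the isoforms of pyruvate kinase.

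Among the carriers Slc16a3, which exports lactate, had 1376 to 4632 with a median of 2428 in UPPL tumours, against 19.8 to 6129.6 with a median of 737 in BBN tumours. For Slc16a3 the log2 fold change was 2.15 (SE 0.70, adjusted p = 0.036). The UPPL values lay close together, and those of BBN tumours spread from 19.8 in BBN976 to 6129.6 in BBN963, so that no UPPL tumour exceeded the highest BBN tumour. Slc2a1, the widespread glucose carrier, had 3823 to 18894 with a median of 8366 in UPPL tumours, against 1792 to 11501 with a median of 6319 in BBN tumours. For Slc2a1 the log2 fold change was 0.60 (SE 0.32, adjusted p = 0.2). In Slc2a1 2 UPPL tumours exceeded every BBN tumour, and the rest overlapped. Slc2a3, a high-affinity glucose carrier, was low in both, at 0 to 42.4 with a median of 11.0 in UPPL tumours, against 0 to 83.3 with a median of 11.4 in BBN tumours (-0.059, adjusted p = 0.98).

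Oxygen sensing genes did not pass. Hif1a had 7302 to 16638 with a median of 10373 in UPPL tumours, against 4532 to 18296 with a median of 10029.6 in BBN tumours (log2 fold change 0.27, SE 0.23, adjusted p = 0.44), and the ranges overlapped almost entirely. Egln3 had 1638 to 7559.8 with a median of 4288 in UPPL tumours, against 321 to 17069 with a median of 1135 in BBN tumours (log2 fold change 1.51, SE 0.56, adjusted p = 0.061), with the highest value of all primary tumours in BBN963. Egln1 gave 0.14 and Kdm3a, a histone demethylase that needs oxygen, 0.48. Both secreted signals were higher in UPPL tumours: Vegfa, the vessel growth factor, had 1409.7 to 10250.0 with a median of 4511 in UPPL tumours, against 615 to 6751 with a median of 1404 in BBN tumours. For Vegfa the log2 fold change was 1.15 (SE 0.38, adjusted p = 0.039). Adm, adrenomedullin, a peptide that widens vessels, had 602 to 2703 with a median of 972.9 in UPPL tumours, against 26.4 to 2975 with a median of 309 in BBN tumours. For Adm the log2 fold change was 1.87 (SE 0.64, adjusted p = 0.044). The lowest UPPL value of Adm lay above 8 of the 11 BBN values, while BBN963 held the highest of all. The endothelial marker sum was 524 to 2206 in UPPL and 460.5 to 4277 in BBN tumours, with 1 of 6 endothelial markers higher and none lower.

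Of the further HIF targets, Ndrg1, a differentiation and stress gene, had 4870.1 to 31735 with a median of 16431 in UPPL tumours, against 492 to 20362 with a median of 2616 in BBN tumours. For Ndrg1 the log2 fold change was 2.29 (SE 0.47, adjusted p = 0.0024). Apart from BBN963 with 20362, only BBN972 reached above the lowest UPPL value. Bnip3, a receptor for mitophagy, had 1024 to 3477 with a median of 2091 in UPPL tumours, against 56.8 to 3041 with a median of 395 in BBN tumours (log2 fold change 2.12, SE 0.54, adjusted p = 0.0093), and BBN963 and BBN969 were the 2 BBN tumours within the UPPL range. Its relative Bnip3l gave 0.29. Car9, the membrane carbonic anhydrase of hypoxic cells, varied more within each group than any difference between them, at 2.39 to 1426 with a median of 45.6 in UPPL tumours, against 8.81 to 1162 with a median of 86.5 in BBN tumours. For Car9 the log2 fold change was -0.27 (SE 1.03, adjusted p = 0.88). In UPPL tumours its highest values were 1426 in UPPL1694 and 922 in UPPL1612, and the first of these had the lowest Hk2 and Ndrg1 of the 9. The collagen prolyl hydroxylases P4ha1 (0.012) and P4ha2 (0.59), the oxidase of the endoplasmic reticulum Ero1l (1.02, adjusted p = 0.084), Ankrd37, an ankyrin repeat gene (0.45), the mTOR inhibitor Ddit4 (0.35) and the MYC antagonist Mxi1 (0.62, adjusted p = 0.065) did not pass.

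**Figure D2:**
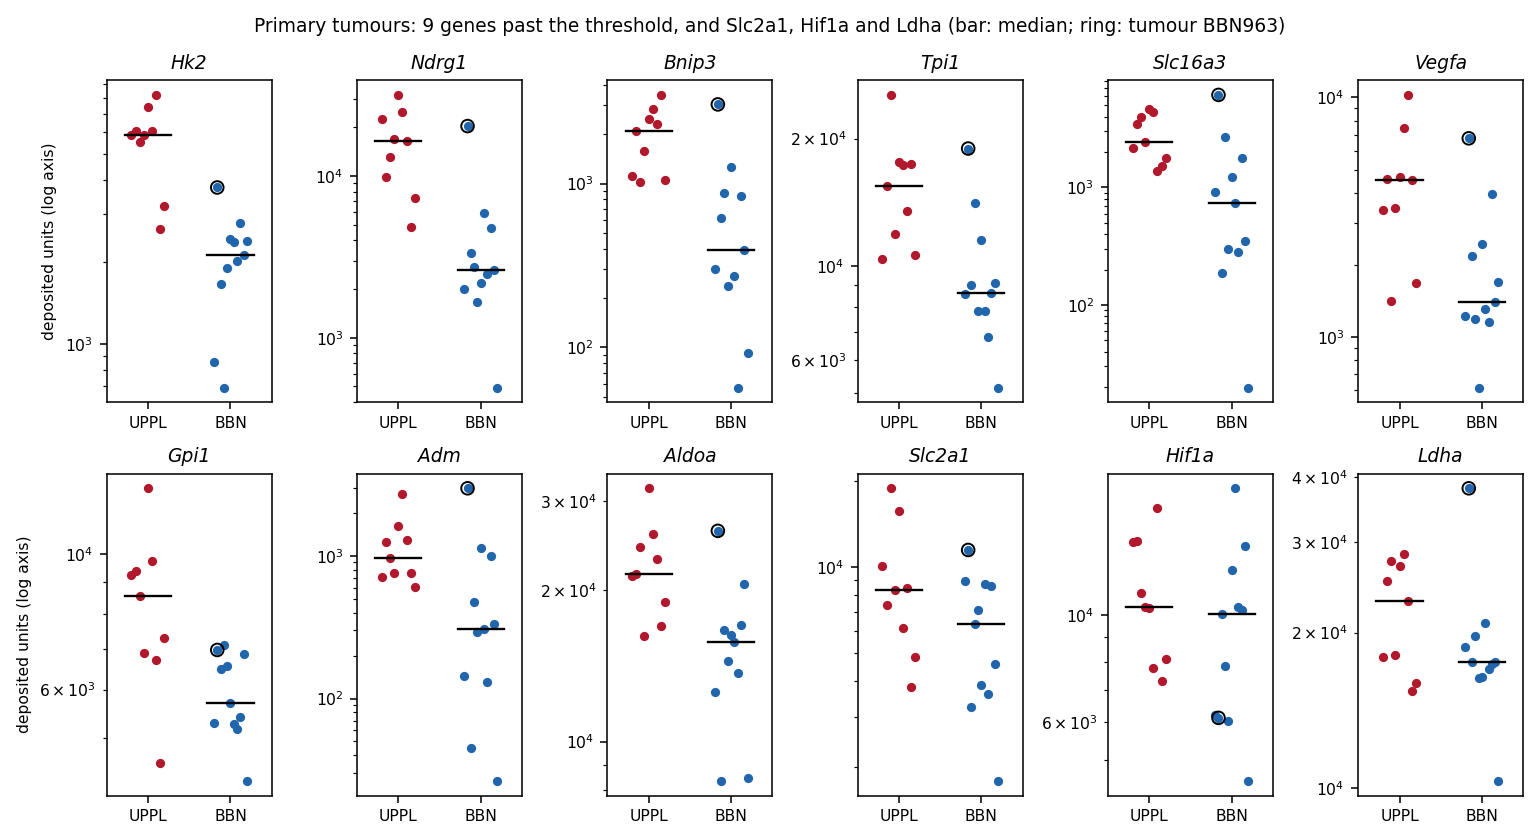
Deposited units on a log axis in each of 9 UPPL (red, left) and 11 BBN (blue, right) primary tumours for the 9 genes past the threshold and for Slc2a1, Hif1a and Ldha, with the median as a bar and tumour BBN963 ringed. Hk2 separates 7 UPPL tumours from all BBN tumours, and the ringed tumour is the highest BBN tumour in 10 of the 12 panels.

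Of the 9 calls, Bnip3, Hk2 and Ndrg1 were kept under every alternative run, with adjusted p up to 0.042, 0.0074 and 0.018. The count of higher genes was 3 without the coarse libraries. It was 4 without any one of UPPL1541, UPPL1544, UPPL1597, UPPL1598 or BBN973, 5 without BBN962, BBN964, BBN968, BBN972 or BBN976, and 14 under median-of-ratios scaling. Between primary tumours 30.9% of the calls over all genes were higher, a share of 48.6% under median-of-ratios scaling and 50.1% under quantile normalization, with all-gene medians of -0.074 and -0.027. With the primary comparison the epithelial markers were higher in 5 of 12 and lower in 0, macrophage markers higher in 0 and lower in 5 of 8 (sums 512 to 2238 in UPPL and 1832 to 7889 in BBN tumours), T cell markers lower in 2 of 2, smooth muscle markers lower in 3 of 6 and fibroblast markers lower in 1 of 7 (sums 364 to 6842 in UPPL and 296 to 56473 in BBN tumours). No fibroblast or macrophage marker was at 0 throughout a group, and their part in the result was not tested.

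Values also varied within each model. Tumour BBN963, whose name the line also carries, had the highest value of the 11 BBN tumours in 28 of the 37 genes and was among the top 3 in 32, while BBN976 had the lowest value in 18. Over 14403 genes at 10 units or more in at least 2 of these tumours, BBN963 was highest in 11.7% and BBN976 lowest in 8.1%. The mean log2 level over the 37 genes was 11.51 in BBN963 and 9.17 in BBN976, with a median of 10.24 over BBN tumours, whereas UPPL tumours lay between 10.49 and 11.24. Among UPPL tumours UPPL1597, a coarse library, was highest in 15 genes, and UPPL1598 was highest in 8, beside 10.6% and 10.9% of 13592 genes chosen in the same way. The genes varied together across BBN tumours. The median correlation of a gene with the mean of the others was 0.75 over 11 tumours, against 0.037 for other genes, and it was 0.46 over 9 tumours once the 2 farthest from the median were left out for each gene. Kdm3a (r = 0.93, rho = 0.85), Pfkl (0.90 and 0.83) and Bnip3 (0.88 and 0.83) followed the others most closely over the 11 tumours. The lowest r belonged to Hif1a (0.24 and 0.27), Hk1 (0.14 and 0.064), Pfkm (0.12 and 0.14), Pfkfb4 (0.094 and -0.027) and Mxi1 (-0.043 and -0.19). Without the 2 farthest tumours r was 0.54 for Hif1a, -0.069 for Hk1, 0.11 for Pfkm, -0.41 for Pfkfb4 and -0.034 for Mxi1. In the 9 UPPL tumours the median was 0.41, against 0.041 for other genes, and it was 0.04 over 7 tumours once the 2 farthest were left out for each gene. Over all 9 Aldoa (r = 0.84, rho = 0.82) and Adm (0.83 and 0.85) followed the others most closely, and Car9 ran the other way (-0.30 and -0.48). Without the 2 farthest tumours r was 0.56 for Aldoa, 0.78 for Adm and 0.033 for Car9. These values describe tumours that share their scaling and differ in step size, and carry no test.

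The 3 lines were then compared as line-derived tumours. BBN963 tumours had high values for most of the genes, and UPPL1541 tumours exceeded them by test in Slc16a3 and Slc2a3 alone of the 37. Beside the tumours of the other lines, MB49 tumours had much Slc2a3 and Eno2 and little Hif1a, Slc2a1 and P4ha2. Against BBN963, 2 of the 37 genes were higher and 17 lower in UPPL1541 tumours, beside 21.4% higher and 7.37% lower of all genes. The median log2 fold change was -0.96 over the 37 genes and 0.32 over all. Against MB49, 11 were higher and 12 lower in UPPL1541 tumours, beside 27.3% and 22.6% of all genes, a share of called genes (62.2%) not far above the 49.9% of all genes. BBN963 tumours had 17 genes higher and 3 lower than MB49 tumours, beside 15.8% and 26.1% of all genes, 41.9% in either direction. In UPPL1541 against BBN963 74.4% of the calls over all genes were higher, a share of 59.6% under median-of-ratios scaling and 49.8% under quantile normalization, with all-gene medians of 0.13 and -0.027. The comparisons share tumours and are given side by side.

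Among the carriers Slc2a1 had 7599.8, 7505, 4835 and 6481 in UPPL1541 tumours, 14614 and 12162 in BBN963 tumours and 3030.2, 4449, 3138 and 2663 in MB49 tumours. The lines did not overlap, with BBN963 highest and MB49 lowest (UPPL1541 to BBN963 -1.04, adjusted p = 0.0071, and to MB49 1.00, adjusted p = 0.0011). Slc2a3 went the other way, with 59.7, 202, 98.1 and 70.3 in UPPL1541 tumours, 24.1 and 30.6 in BBN963 tumours and 1515, 5036, 3937 and 2483 in MB49 tumours (-4.93, adjusted p = 4.0e-06 for UPPL1541 against MB49, and -6.70, adjusted p = 2.6e-06 for BBN963 against MB49). Slc16a3 had 3097, 3792, 1885 and 2590.1 in UPPL1541 tumours, 909.9 and 542 in BBN963 tumours and 516, 528, 386 and 576 in MB49 tumours, so every UPPL1541 tumour was above the tumours of both other lines (1.97, adjusted p = 7.8e-04 against BBN963, and 2.47, adjusted p = 7.4e-06 against MB49).

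Hk2 had 4836, 2486, 2194 and 2704 in UPPL1541 tumours, 7188 and 5288 in BBN963 tumours and 1272, 1319.9, 1577 and 919.6 in MB49 tumours. Its order was BBN963, UPPL1541 and then MB49 without overlap (-1.08, adjusted p = 0.021 for UPPL1541 against BBN963, and 2.30, adjusted p = 1.2e-04 for BBN963 against MB49). Hk1 had 3171, 2176, 2498 and 2677 in UPPL1541 tumours, 5154 and 4993 in BBN963 tumours and 3773, 6011, 5213 and 4202 in MB49 tumours, and UPPL1541 was lower than both (-0.96, adjusted p = 0.0051 and -0.86, adjusted p = 0.0011). Pfkp had 1894, 1567, 1116 and 1266 in UPPL1541 tumours, 5143 and 5045 in BBN963 tumours and 3457, 4058, 4210.1 and 3281 in MB49 tumours, again lowest in UPPL1541 (-1.83, adjusted p = 1.4e-04 against BBN963, and -1.38, adjusted p = 4.0e-05 against MB49). Pfkl differed in the opposite sense between UPPL1541 and MB49, with 4757, 5605, 3216 and 3671 in UPPL1541 tumours, 5646 and 6756 in BBN963 tumours and 2892, 2969.7, 2717 and 2471 in MB49 tumours (0.61, adjusted p = 0.01). Gpi1 was lower in UPPL1541 than in either line (-0.69 and -0.81), Pfkm was highest in MB49 (-0.64 for UPPL1541 and -1.06 for BBN963 against it), and Pfkfb3 was lowest in MB49 (0.82 and 1.46). Pfkfb4 did not pass in any of the 3 comparisons.

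In lower glycolysis Eno1 had 2904, 3007, 1913 and 2337 in UPPL1541 tumours, 6576 and 8707 in BBN963 tumours and 3219, 3462, 2475 and 2403 in MB49 tumours (-1.60, adjusted p = 5.8e-04 for UPPL1541 against BBN963). Both BBN963 tumours exceeded all others in Eno1. Pkm2 had 18798, 22485, 16061 and 18305 in UPPL1541 tumours, 36874 and 47821 in BBN963 tumours and 36148, 41736, 30816 and 28362 in MB49 tumours, lowest in UPPL1541 (-1.16, adjusted p = 0.0026 against BBN963, and -0.85, adjusted p = 0.0017 against MB49). Aldoa had 15022, 19226, 11607 and 12344 in UPPL1541 tumours, 23789 and 34354 in BBN963 tumours and 26144, 32269, 23091 and 23043 in MB49 tumours with the same order of UPPL1541 below both other lines (-1.003, adjusted p = 0.011 and -0.86, adjusted p = 0.0038). Aldoc had 496, 817, 293 and 478 in UPPL1541 tumours, 703 and 1347 in BBN963 tumours and 43.7, 138, 61.8 and 29.1 in MB49 tumours, so MB49 lay below both (3.06, adjusted p = 2.7e-04 for UPPL1541, and 4.06, adjusted p = 2.1e-04 for BBN963). Eno2 had 69.3, 19.6, 64.6 and 10.7 in UPPL1541 tumours, 15.2 and 0 in BBN963 tumours and 209, 232, 158 and 258 in MB49 tumours (-5.72, adjusted p = 0.0012 for BBN963 against MB49). One BBN963 tumour was listed at 0 for Eno2, so this fold change depends on the pseudocount. Ldha had 19284, 30862, 17332 and 17805 in UPPL1541 tumours, 32799 and 41429 in BBN963 tumours and 30857, 33710.4, 27139.7 and 25157 in MB49 tumours (-0.83, adjusted p = 0.027 for UPPL1541 against BBN963). Pgk1 had 1514, 2243, 1145 and 1080.1 in UPPL1541 tumours, 2471 and 4315 in BBN963 tumours and 2319, 2165, 1732 and 1467 in MB49 tumours (-1.19, adjusted p = 0.017), and both genes differed by less between UPPL1541 and MB49 (-0.49 and -0.40, neither past the threshold). Tpi1 was lower in MB49 than in UPPL1541 (0.67, UPPL1541 over MB49) and than in BBN963 (0.73), and Pgam1 did not pass in any of the 3. Pdk1 was higher in BBN963 than in MB49 (0.58, adjusted p = 0.045) and did not pass in the others.

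In oxygen sensing Hif1a and Egln3 differed between the lines. Hif1a had 16874, 14636, 14528 and 12373 in UPPL1541 tumours, 15726 and 12361 in BBN963 tumours and 2839.8, 3779, 3382 and 4622 in MB49 tumours, with overlapping ranges in UPPL1541 and BBN963 (0.058, adjusted p = 0.85) and lower in MB49 (2.01, adjusted p = 2.1e-06 for UPPL1541, and 1.95, adjusted p = 2.0e-05 for BBN963). Egln3 had 7855, 6035, 4260.0 and 4420.4 in UPPL1541 tumours, 38871 and 50190.0 in BBN963 tumours and 1486, 2788, 1818 and 1587 in MB49 tumours. Both BBN963 tumours stood far above the rest (-3.01, adjusted p = 7.1e-05 for UPPL1541 to BBN963, and 4.57, adjusted p = 4.5e-07 for BBN963 to MB49), and UPPL1541 was also above MB49 (1.56). Egln1 was higher in BBN963 than in MB49 (1.89, adjusted p = 0.0066), and Kdm3a did not pass in any of the 3. Vegfa had 2631, 1606, 1016 and 1475 in UPPL1541 tumours, 3888 and 3199.8 in BBN963 tumours and 798, 1901, 877 and 668 in MB49 tumours and was higher in BBN963 than in MB49 (1.86, adjusted p = 0.0038). Adm was lower in UPPL1541 than in MB49, with 392, 378, 83.2 and 108 in UPPL1541 tumours, 948 and 472 in BBN963 tumours and 982, 2089.8, 775 and 1249 in MB49 tumours (-2.63, adjusted p = 0.0016).

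Of the enzymes of collagen and folding, P4ha2 had 3109.9, 2331, 1732 and 2475 in UPPL1541 tumours, 1680.2 and 2036 in BBN963 tumours and 465, 641, 325 and 279 in MB49 tumours, lower in MB49 (2.54, adjusted p = 1.2e-05 for UPPL1541, and 2.19, adjusted p = 2.3e-04 for BBN963). P4ha1 ran the other way, with 2201, 1130.4, 1366 and 1762 in UPPL1541 tumours, 2919 and 2740.2 in BBN963 tumours and 2864, 5575, 3677 and 3442 in MB49 tumours (-1.27, adjusted p = 8.8e-04 for UPPL1541 against MB49). Ero1l had 4931, 3528, 1697 and 1985 in UPPL1541 tumours, 15247 and 17685 in BBN963 tumours and 9878, 30713, 11989 and 9695 in MB49 tumours, lowest in UPPL1541 (-2.57, adjusted p = 0.0034 against BBN963, and -2.31, adjusted p = 6.6e-04 against MB49). Ndrg1 had 11651, 6111, 3670.3 and 5460.0 in UPPL1541 tumours, 31359 and 37376 in BBN963 tumours and 3598, 7275, 3193 and 3372 in MB49 tumours. Both BBN963 tumours exceeded all others in Ndrg1 (-2.48, adjusted p = 0.0017 for UPPL1541, and 3.06, adjusted p = 1.5e-04 for BBN963 against MB49). Mxi1 had 1471, 1394, 919 and 1309 in UPPL1541 tumours, 3218 and 3209.6 in BBN963 tumours and 1029, 1961, 1179 and 1135 in MB49 tumours, also highest in BBN963 (-1.36, adjusted p = 0.0032 for UPPL1541 against it). Ddit4 had 5582, 5493, 4163 and 5023 in UPPL1541 tumours, 9069.8 and 8001 in BBN963 tumours and 1461, 2155, 1922 and 2353 in MB49 tumours, which fell into 3 ranges without overlap in the order BBN963, UPPL1541 and MB49 (-0.76 and 1.37 for UPPL1541). Bnip3 had 2929.5, 3915, 1547 and 1465 in UPPL1541 tumours, 5817 and 7490.2 in BBN963 tumours and 3268, 5441, 3161 and 2978 in MB49 tumours (-1.55, adjusted p = 0.012 for UPPL1541 against BBN963), and Bnip3l did not pass in any of the 3. Ankrd37 was higher in BBN963 than in MB49 (1.41, adjusted p = 0.025). Car9 had 260.5, 48.2, 23.6 and 22.6 in UPPL1541 tumours, 178 and 282 in BBN963 tumours and 129, 1373, 361 and 103 in MB49 tumours, with a wide spread inside UPPL1541 and MB49 (-2.10, adjusted p = 0.18 against BBN963, and -2.45, adjusted p = 0.041 against MB49, both as UPPL1541 minus the other line).

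Tumours of 1 line also differed among themselves. UPPL1541 tumours 1 and 2 both exceeded tumours 3 and 4 in 29 of the 37 genes and were both below them in 0. Over 13675 genes at 10 units or more in at least 2 of the 4 tumours, 20.1% had the first pattern and 9.13% the second. In MB49, tumour 2 was the highest of 4 in 27 of the 37 genes, beside 30.8% of 12993 genes. The marker lists moved with the lines too: fibroblast sums were 74911 to 372774 in UPPL1541, 87000.0 to 114665 in BBN963 and 15344 to 112012 in MB49 tumours, macrophage sums 7671 to 14556, 6279 to 8028 and 18792 to 28231, and skeletal muscle sums 113 to 836, 73.6 to 10146 and 5225 to 16926. Dividing-cell markers were lower in 5 of 6, macrophage markers in 7 of 8 and skeletal muscle markers in 9 of 10 in UPPL1541 against MB49 tumours. T cell markers were lower there in 5 of 6 and fibroblast markers higher in 5 of 7. Epithelial markers were higher in 8 and lower in 2 of 11. In UPPL1541 against BBN963, dividing-cell markers were lower in 4 of 6, fibroblast markers higher in 3 of 7 and macrophage markers higher in 3 of 8. Epithelial markers were higher there in 5 of 11. In BBN963 against MB49 tumours epithelial markers were higher in 6 and lower in 3 of 11, dividing-cell markers higher in 1 and lower in 4 of 6, macrophage markers lower in 7 of 8 and neutrophil markers in 3 of 5. Handling-stress markers were higher in 6 and lower in 0 of 9 in UPPL1541 against MB49, higher in 6 and lower in 2 in BBN963 against MB49, and 1 each way in UPPL1541 against BBN963. Their sums were 10875 to 14536 in UPPL1541, 15723 to 17350.5 in BBN963 and 6423 to 7889 in MB49 tumours. The part of these markers in the values was not tested. Without the coarse libraries the genes lower in UPPL1541 than in BBN963 numbered 11 in place of 17, and the same count resulted without either BBN963 tumour.

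Some calls between the lines were lost under part of the 18 alternatives, and the highest adjusted p over all 18 is given beside the number of alternatives that kept each. Between BBN963 and MB49 the calls kept least often were Pdk1 in 7 (highest adjusted p = 0.26), Tpi1 in 9 (highest adjusted p = 0.26) and Ankrd37 in 13 (highest adjusted p = 0.14), each lost without either BBN963 tumour and without the coarse libraries. Pfkm, Egln1 and Vegfa were lost there without the coarse libraries as well. Between UPPL1541 and BBN963 the least kept were Gpi1 in 8 (highest adjusted p = 0.28), P4ha1 in 9 (highest adjusted p = 0.18), Ldha in 11 (highest adjusted p = 0.16) and Slc2a3 in 12 (highest adjusted p = 0.2), again lost without either BBN963 tumour. Hk2, Slc2a1 and Ddit4 lost their call without the first BBN963 tumour, and Bnip3, Aldoa and Pgk1 without the second. Between UPPL1541 and MB49 they were Car9 in 12 (highest adjusted p = 0.12), Pfkm in 12 (highest adjusted p = 0.0729), Eno2 in 15 (highest adjusted p = 0.064) and Tpi1 in 15 (highest adjusted p = 0.0649). The remaining 19 of 23, 9 of 19 and 14 of 20 calls (UPPL1541 against MB49, UPPL1541 against BBN963 and BBN963 against MB49) passed under every alternative run.

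Line-derived tumours were set against the primary tumours of their model. For BBN963 the shift was broad: 18 of the 37 genes were higher in the 2 line-derived tumours than in the 11 BBN primary tumours, and none was lower by limma or edgeR or at an unadjusted p under 0.05. Among all genes 2.09% were higher and 5.67% lower (7.76% in all), and the median log2 fold change was 1.36 over the 37 genes and -0.17 over all. For UPPL1541, 5 genes were higher and 5 lower in the 4 line-derived tumours than in the 9 UPPL primary tumours, beside 20.5% and 5.98% of all genes, with medians of 0.31 and 0.37. In either direction 27.0% of the 37 genes were called for UPPL1541, close to the 26.5% of all genes. In the BBN963 comparison 26.9% of the calls over all genes were higher, a share of 38.6% under median-of-ratios scaling and 36.3% under quantile normalization, with all-gene medians of -0.031 and -0.05. In the UPPL1541 comparison 77.4% of the calls over all genes were higher, a share of 64.7% under median-of-ratios scaling and 48.8% under quantile normalization, with all-gene medians of 0.19 and -0.077.

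In BBN963 the hydroxylase gene Egln3 averaged 44530.3 ± 8004 in line-derived and 2887 ± 4859.9 in primary tumours (SD, n = 2 and 11; log2 fold change 5.03, SE 0.87, adjusted p = 5.5e-04). Egln1 averaged 7368 ± 438 and 1991 ± 576 in the same order. For Egln1 the log2 fold change was 1.94 (SE 0.34, adjusted p = 5.5e-04). Both line-derived tumours exceeded every BBN primary tumour in these 2 genes of oxygen sensing, while Hif1a did not pass (0.65, adjusted p = 0.3). Of the enzymes, Pgam1 averaged 20953 ± 2239.7 in line-derived and 7117 ± 2243 in primary tumours (1.61, adjusted p = 0.0015), and Pgk1 3393 ± 1304 and 879.6 ± 543 (2.08, adjusted p = 0.0032). Lower glycolysis rose in 5 of its 9 genes: these 2, Tpi1 (1.62, adjusted p = 0.0049), Aldoc (2.85, adjusted p = 0.016) and Eno1 (1.34, adjusted p = 0.038). Hk2 (1.70, adjusted p = 0.018), Pfkp (1.44, adjusted p = 0.019), Pfkl (1.27) and Pdk1 (1.36, adjusted p = 0.013) were higher as well, and Ldha was not past the threshold (1.02, adjusted p = 0.055).

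Ndrg1 averaged 34368 ± 4255 in BBN963 line-derived and 4415 ± 5490.3 in BBN primary tumours (3.56, adjusted p = 0.0035). Bnip3 averaged 6654 ± 1183 and 726 ± 853 (3.97, adjusted p = 0.004), and Mxi1 gave 1.34, adjusted p = 0.026. All 3 enzymes of collagen and folding were higher, P4ha1 by 1.69, P4ha2 by 1.66 and Ero1l by 2.34, as was Ddit4 by 1.75. Slc2a1 (1.29, adjusted p = 0.13), Vegfa (1.01, adjusted p = 0.34) and Car9 (1.45, adjusted p = 0.64) did not pass. The primary tumour BBN963 was itself high: both line-derived tumours exceeded it in 19 of the 37 genes and both were below it in 7, and the median log2 difference from it was 0.25. Over 12506 genes at 10 units or more in at least 2 of these 3 libraries, 37.1% were above it in both and 40.1% below. Epithelial markers were lower in 5 of 12 and skeletal muscle markers higher in 3 of 9 in the same comparison, and their part in it was not tested. The count of 18 became 4 without the first BBN963 line-derived tumour, which is coarse, 3 without the second, and 4 without all coarse libraries. Egln1, Egln3 and Pgam1 passed under every alternative run.

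In UPPL1541 line-derived tumours the signals were lower than in UPPL primary tumours. The calls described here came at a share near that of all genes (27.0% against 26.5%). Vegfa averaged 1682 ± 681 in line-derived and 4594 ± 2772 in primary tumours (SD, n = 4 and 9; log2 fold change -1.29, SE 0.48, adjusted p = 0.048). Adm averaged 240.4 ± 167 and 1183 ± 659. For Adm the log2 fold change was -2.46 (SE 0.82, adjusted p = 0.027). The early steps Gpi1 (-0.69, adjusted p = 0.014), Hk1 (-0.80, adjusted p = 0.018) and Pfkp (-0.88, adjusted p = 0.031) were lower too. P4ha2 averaged 2412 ± 566 in line-derived and 926 ± 309 in primary tumours and was higher (log2 fold change 1.42, SE 0.37, adjusted p = 0.0055), the 1 call of the 10 kept under every alternative run. The higher genes numbered 1 without tumour 1 or tumour 2 of UPPL1541 and 3 without tumour 3, and the lower genes 2, 0 and 1 without tumours 2, 3 and 4. Also higher were Tpi1 (0.86, adjusted p = 0.023), Egln1 (0.80, adjusted p = 0.026), Eno2 (3.24, adjusted p = 0.034) and Slc2a3 (3.24, adjusted p = 0.04), the last 2 from levels near 0 in primary tumours. Hif1a (0.44), Slc2a1 (-0.35), Ldha (-0.054), Pgk1 (0.54) and Car9 (-0.39) did not pass. Fibroblast markers were higher in 7 of 7, macrophage markers in 7 of 8 and epithelial markers lower in 8 of 12 in the same comparison, and their part in it was not tested.

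The UPPL to BBN difference was then compared between kinds of tumour. Of 36 genes tested in both, 28 had a negative value in line-derived and a positive one in primary tumours, 5 were positive in both, 2 negative in both and 1 negative in primary only. The share of all genes with each pattern of signs was not computed. The median over all genes was -0.19 in primary and 0.32 in line-derived tumours. The test of the difference itself passed for 11 of 37 genes, all lower, beside 1.06% lower and 8.16% higher of all genes (9.22% in either direction). None was higher by limma or edgeR, and 1 was higher at an unadjusted p under 0.05. The line-derived side rests on 1 line of each model, so model and line cannot be told apart there. In this difference 88.5% of the calls over all genes were higher, a share of 68.1% under median-of-ratios scaling and 53.4% under quantile normalization, with all-gene medians of 0.25 and 0.0049.

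Ndrg1 gave -2.48 in line-derived tumours and 2.29 in primary tumours, a difference of -4.77 (SE 0.95, adjusted p = 0.0032). Hk2 gave -1.08 in line-derived and 1.498 in primary tumours, a difference of -2.58 (adjusted p = 0.0058), and Bnip3 gave -1.55 and 2.12 with -3.66 (adjusted p = 0.033). These 3 genes, which had the firmest calls in primary tumours, passed with opposite signs in the 2 settings. In line-derived tumours only Ndrg1 of the 3 kept its call under every alternative run, and of the 11 differences 0 did. Egln3 differed by -4.52 (adjusted p = 0.012), Ero1l by -3.59 (0.0098), Mxi1 by -1.98 (0.01) and Pfkp by -2.32 (0.0045). Smaller values belonged to Aldoa (-1.57), Pkm2 (-1.45), Hk1 (-1.45) and Gpi1 (-1.15). Slc2a1 (-1.63), Vegfa (-2.31), Ldha (-1.07), Pgk1 (-1.54), Car9 (-1.83) and Hif1a (-0.21) did not pass, and Slc16a3 gave almost the same value in both settings (1.97 in line-derived and 2.15 in primary tumours; difference -0.18, SE 1.39). The count of 11 became 0 without the coarse libraries, 2 without the first and 4 without the second BBN963 tumour, 18 under median-of-ratios scaling and 17 without the primary tumours UPPL1541 and BBN963.

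**Figure D3:**
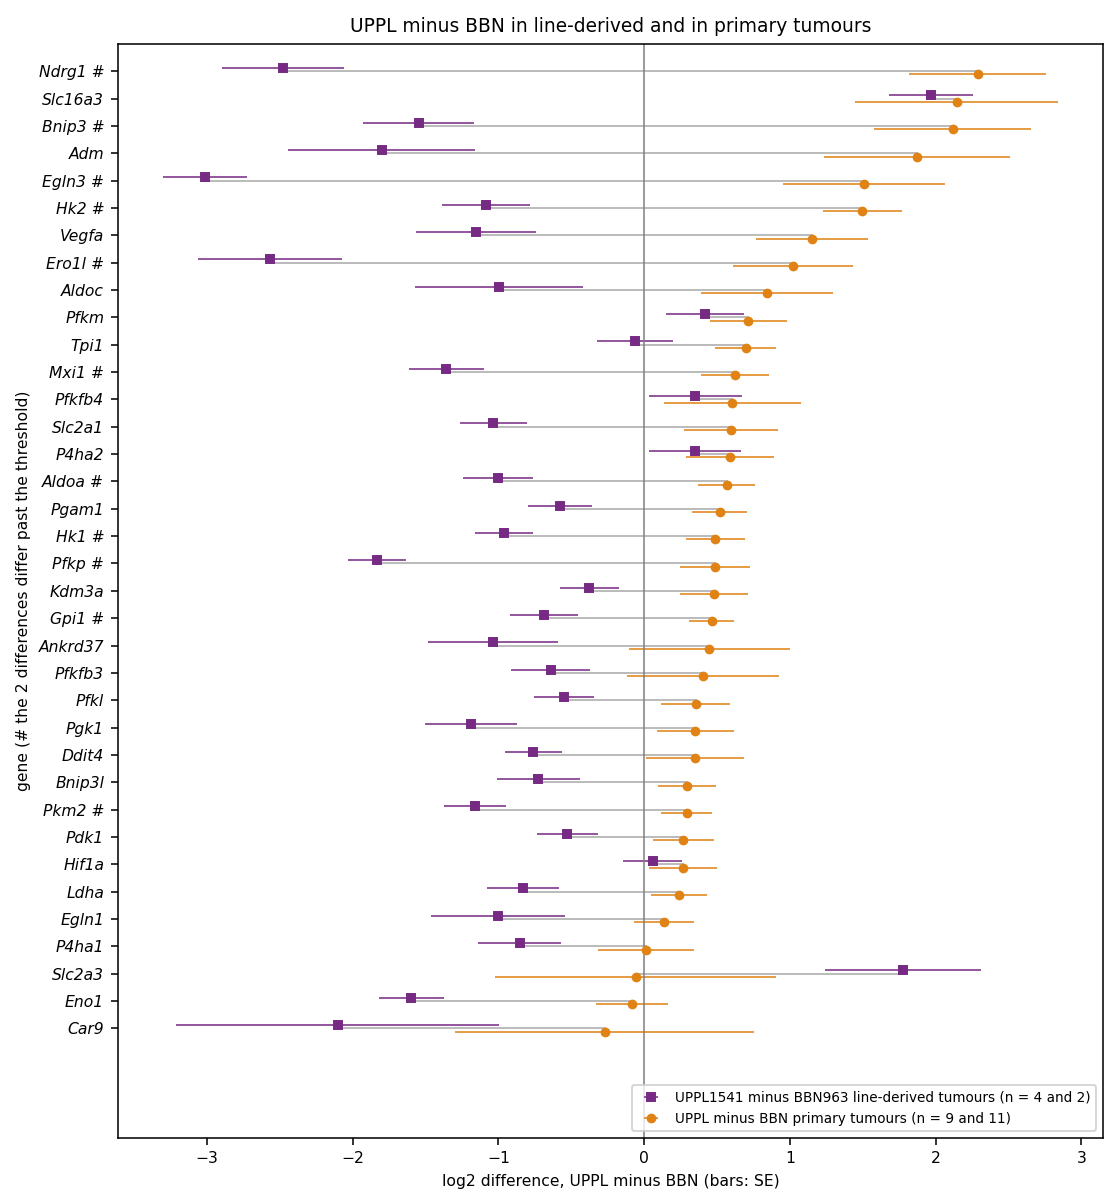
Log2 difference of UPPL minus BBN (x axis, bars are SE) for 36 genes (rows) in line-derived tumours (purple squares, UPPL1541 minus BBN963) and primary tumours (orange circles). For 28 genes the square lies left and the circle right of 0, and # marks the 11 genes whose 2 differences differ past the threshold. The share of all genes with opposite signs was not computed.

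Line-derived tumours were last compared with cultures of the same lines. Most of the genes were higher in tumours: 26 of 37 passed, beside 20.1% higher and 8.99% lower of all 14321 genes, and the median log2 difference was 1.30 over the 37 genes and 0.13 over all. None was lower by limma or edgeR, and 1, Vegfa, at an unadjusted p under 0.05. In 21 genes the culture lay below every tumour in all 3 lines, and the share of all genes with that pattern was not computed. Line by line the culture lay below every tumour in 26 genes for UPPL1541, 35 for BBN963 and 29 for MB49. The shares of all genes were 41.8%, 32.6% and 47.3% in the same order. Between tumours and cultures 69.1% of the calls over all genes were higher, a share of 66.5% under median-of-ratios scaling and 45.4% under quantile normalization, with all-gene medians of 0.11 and -0.16.

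Both mitophagy receptors and several other HIF targets rose. Bnip3 had 1465 to 3915 in UPPL1541 tumours against 341 in their culture, 5817 to 7490.2 in BBN963 tumours against 541, and 2978 to 5441 in MB49 tumours beside 406 in culture. For Bnip3 the log2 fold change was 3.13 (SE 0.29, adjusted p = 5.1e-06). Bnip3l had 1742 to 3336 in UPPL1541 tumours against 637 in their culture, 3193 to 4651 in BBN963 tumours against 786, and 2269.5 to 3575 in MB49 tumours beside 1205 in culture. For Bnip3l the log2 fold change was 1.72 (SE 0.25, adjusted p = 2.3e-04). Ankrd37 had 231 to 726 in UPPL1541 tumours against 31.7 in their culture, 706 to 935 in BBN963 tumours against 92.5, and 210.2 to 532 in MB49 tumours beside 9.64 in culture. For Ankrd37 the log2 fold change was 3.90 (SE 0.41, adjusted p = 1.4e-05). In these 3 genes all 10 tumours exceeded all 3 cultures. Egln3 had 4260.0 to 7855 in UPPL1541 tumours against 1157 in their culture, 38871 to 50190.0 in BBN963 tumours against 1664, and 1486 to 2788 in MB49 tumours beside 409.5 in culture (log2 fold change 2.95, SE 0.38, adjusted p = 9.4e-05), and Egln1 also rose (1.48, adjusted p = 0.0079). Hif1a itself did not pass (log2 fold change 0.67, SE 0.41, adjusted p = 0.25), with 12373 to 16874 in UPPL1541 tumours against 6222 in their culture, 12361 to 15726 in BBN963 tumours against 3107, and 2839.8 to 4622 in MB49 tumours beside 7937 in culture, so its order was opposite in MB49. Car9 had 22.6 to 260.5 in UPPL1541 tumours against 1.87 in their culture, 178 to 282 in BBN963 tumours against 15.8, and 103 to 1373 in MB49 tumours beside 2.89 in culture (4.77, adjusted p = 0.0015). The cultures of UPPL1541 and MB49 held 2 and 3 reads of Car9, so the ratio of mean tumour to culture was 47.5 with a counting interval of 13.2 to 392 in UPPL1541, and 170.0 with an interval of 58.2 to 824 in MB49 (95% exact Poisson interval of the culture's reads, counting error only).

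Glycolysis rose nearly throughout, in 6 of 8 genes of the early steps and 8 of 9 of the lower part. Tpi1 had 21904 to 41901 in UPPL1541 tumours against 7926 in their culture, 24245 to 32952 in BBN963 tumours against 9366, and 14991 to 19077 in MB49 tumours beside 5504 in culture (log2 fold change 1.67, SE 0.20, adjusted p = 4.5e-05), and Gpi1 had 4200.1 to 6718 in UPPL1541 tumours against 1929 in their culture, 6961 to 9342 in BBN963 tumours against 3395, and 7389 to 11893 in MB49 tumours beside 2153 in culture. For Gpi1 the log2 fold change was 1.57 (SE 0.20, adjusted p = 8.0e-05). All tumours exceeded all cultures in both. Pfkl had 3216 to 5605 in UPPL1541 tumours against 1427 in their culture, 5646 to 6756 in BBN963 tumours against 2912, and 2471 to 2969.7 in MB49 tumours beside 707 in culture (log2 fold change 1.56, SE 0.19, adjusted p = 4.3e-05), and Pfkp had 1116 to 1894 in UPPL1541 tumours against 707 in their culture, 5045 to 5143 in BBN963 tumours against 2151, and 3281 to 4210.1 in MB49 tumours beside 1199 in culture. For Pfkp the log2 fold change was 1.30 (SE 0.17, adjusted p = 1.0e-04). Ldha had 17332 to 30862 in UPPL1541 tumours against 8698 in their culture, 32799 to 41429 in BBN963 tumours against 21976, and 25157 to 33710.4 in MB49 tumours beside 5776 in culture (1.48, adjusted p = 0.0011), and Pgk1 had 1080.1 to 2243 in UPPL1541 tumours against 609 in their culture, 2471 to 4315 in BBN963 tumours against 1456, and 1467 to 2319 in MB49 tumours beside 625.4 in culture (1.34, adjusted p = 0.0011). In each line the culture lay below every tumour for Pfkl, Pfkp, Ldha and Pgk1. Pdk1, which diverts pyruvate to lactate, had 2702 to 4030.0 in UPPL1541 tumours against 1259.6 in their culture, 4058 to 5099 in BBN963 tumours against 1043.8, and 2492 to 3879 in MB49 tumours beside 391 in culture. For Pdk1 the log2 fold change was 2.14 (SE 0.25, adjusted p = 3.6e-05). Aldoa (1.22, adjusted p = 5.4e-04) and Pgam1 (1.12, adjusted p = 5.4e-04) rose to a like extent. Pfkfb4 (1.99), Pfkfb3 (0.99), Aldoc (2.01), Hk1 (0.90), Eno1 (0.64) and Pkm2 (0.56) completed the list of enzymes past the threshold. The call for Pkm2 was kept in 5 of 21 alternatives (adjusted p up to 0.34), and Eno1 lost its call under edgeR and without the BBN963 line, the MB49 line or the second BBN963 tumour. Hk2 (0.23), Pfkm (0.79) and Eno2 (-0.25) did not pass.

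All 3 carriers rose. Slc2a1 had 4835 to 7599.8 in UPPL1541 tumours against 3584 in their culture, 12162 to 14614 in BBN963 tumours against 4487, and 2663 to 4449 in MB49 tumours beside 2432 in culture. For Slc2a1 the log2 fold change was 0.91 (SE 0.22, adjusted p = 0.0069). Slc2a3 gave 2.40, adjusted p = 0.0023, with 1 read in the BBN963 culture, where the ratio of mean tumour to culture was 22.5 with a counting interval of 4.04 to 889. Slc16a3 gave 3.44, adjusted p = 0.04, a call that rested on MB49, whose culture was listed at 0 against 386 to 576 in its tumours. That contrast is at least 173-fold higher at a floor of 3 reads in the culture, the fitted value depends on the pseudocount, and the call was lost without the line, any 1 of its tumours, or UPPL1541 tumour 1 or 2. Vegfa had a negative value that did not pass, with 1016 to 2631 in UPPL1541 tumours against 2484 in their culture, 3199.8 to 3888 in BBN963 tumours against 2844, and 668 to 1901 in MB49 tumours beside 4837 in culture (log2 fold change -0.95, SE 0.42, adjusted p = 0.11), and its culture value exceeded every tumour in MB49. Ndrg1 (2.31, adjusted p = 0.027) and Mxi1 (1.13, adjusted p = 0.0032) rose, the first of them lost without either BBN963 tumour, and Adm (1.52), Ddit4 (0.34), Kdm3a (0.20), P4ha1 (0.56), P4ha2 (0.54) and Ero1l (0.27) did not pass.

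**Figure D4:**
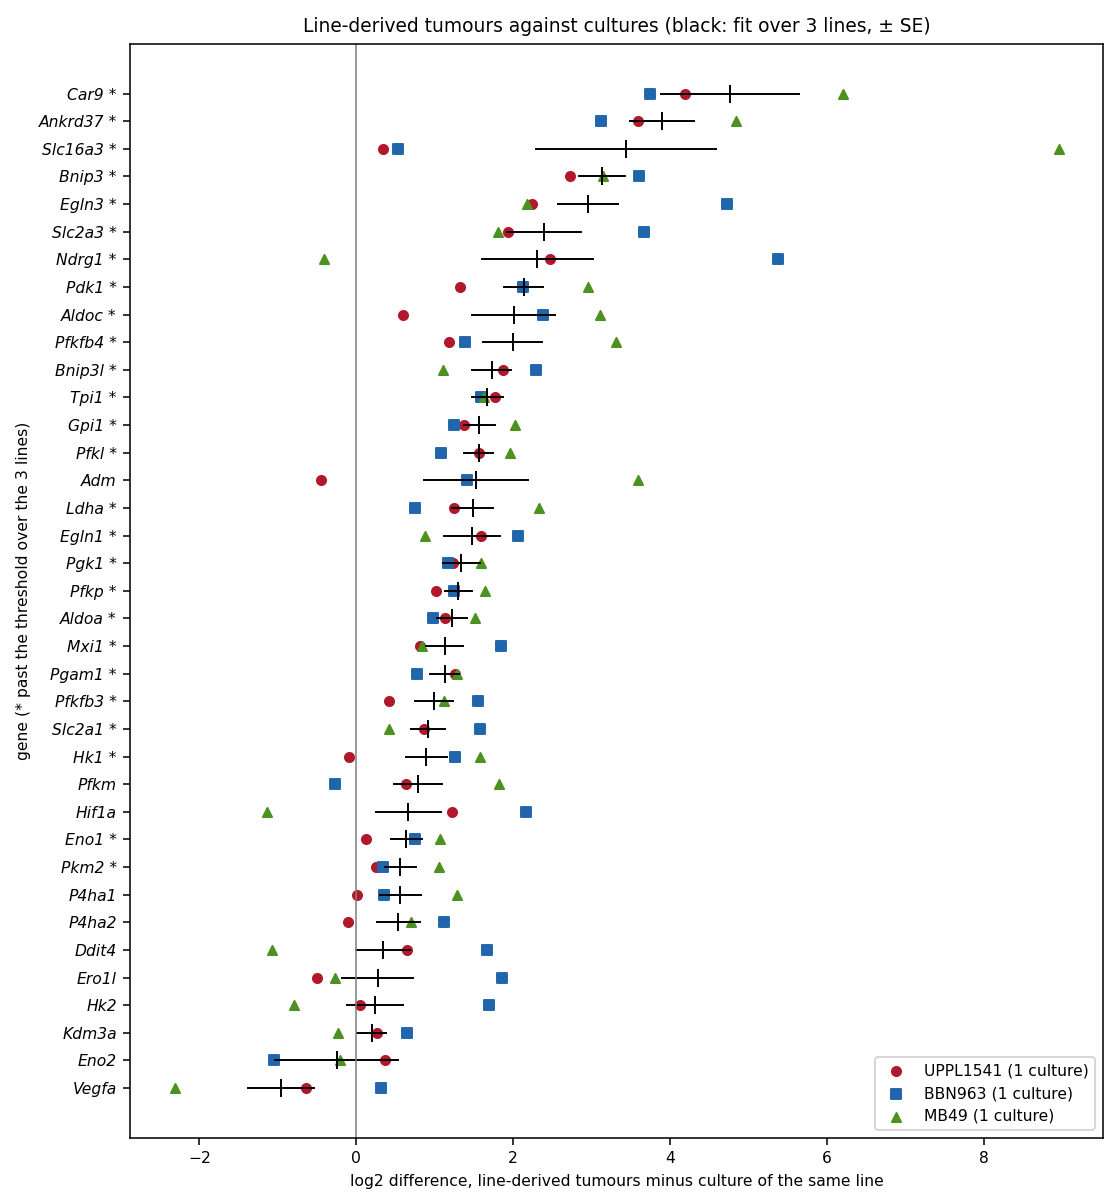
Log2 difference of line-derived tumours minus the culture of the same line (x axis) for the 37 genes (rows), shown for UPPL1541 (red circles), BBN963 (blue squares) and MB49 (green triangles), with the fit over the 3 lines in black (± SE). Car9, Ankrd37 and Bnip3 lie to the right in every line, Vegfa lies left of 0 in UPPL1541 and MB49, and * marks the 26 genes past the threshold.

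Markers of stromal, vessel and blood cells rose in the same comparison: 7 of 7 fibroblast, 6 of 6 endothelial, 7 of 8 macrophage, 6 of 6 T cell, 4 of 5 neutrophil 4 of 10 skeletal muscle and 3 of 9 handling-stress markers were higher in tumours. Fibroblast sums were 15344 to 372774 in the 10 tumours and 27.1, 94.9 and 1006 in the UPPL1541, BBN963 and MB49 cultures, where Lum was at 0, and macrophage sums were 6279 to 28231 in tumours and 3334, 793 and 772 in the cultures, where C1qa, C1qb and C1qc were at 0. Their part in the rise of the 26 genes was not tested. With 1 culture a line, no culture was replicated. The error of the fit pools differences of the effect between lines with the spread among tumours of the same line. Its p-values rest mostly on that second spread and do not measure variation between cultures. Of the 26 calls 16 (Aldoa, Ankrd37, Bnip3, Bnip3l, Car9, Egln3, Gpi1, Ldha, Mxi1, Pdk1, Pfkfb4, Pfkl, Pfkp, Pgam1, Pgk1 and Tpi1) passed under every alternative run.

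The KT cultures were set beside the other cultures as values. All 3 KT cultures exceeded the UPPL1541, BBN963 and MB49 cultures in 16 of the 37 genes and lay below them in 1, Hk2. Over 12184 genes at 10 units or more in at least 3 of the 6 cultures, 1805 (14.8%) lay above and 1219 (10%) below in the same way. Bnip3 had 1513, 2630.4 and 2895 in the KT cultures KT1044, KT1970 and KT1975, against 341, 541 and 406 in the UPPL1541, BBN963 and MB49 cultures. Hk2 had 932, 1019 and 1577 in KT cultures against 2814, 1900.2 and 2174. Slc2a1 had 9488, 6945 and 6342 in KT cultures against 3584, 4487 and 2432. The same separation was present in Slc16a3, Hk1, Gpi1, Pfkl, Pfkfb3, Aldoa, Aldoc, Pdk1, Egln3, Kdm3a, Adm, Bnip3l, Ddit4 and Mxi1. Slc2a3 and Eno2, which were high in MB49 tumours, did not separate the cultures in this way. Slc2a3 had 53.3, 2992 and 778 in KT cultures against 24.3, 1.22 and 841. Eno2 had 123, 211 and 264 against 24.3, 7.30 and 243. Each culture is a single library of a different line, so these are values without a test. Marker sums for dividing cells were 3468 to 13231 in KT cultures and 33669, 32845 and 10144 in the UPPL1541, BBN963 and MB49 cultures.

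Related genes outside the 37 were read from 6 lists, to be set beside 5.71% higher and 12.8% lower of all genes between UPPL and BBN primary tumours. Of other glycolysis genes 1 of 7 tested was higher in UPPL than in BBN primary tumours, Gapdh (0.77, adjusted p = 0.011), which also has many near copies, while Gapdhs was not tested and Pfkfb1 (0.94, adjusted p = 0.43) and Adpgk (-0.23, adjusted p = 0.21) did not pass. Among carriers and pyruvate genes the lactate carrier Slc16a1 was lower (-2.10, adjusted p = 0.0076) and its relative Slc16a7 higher (3.24, adjusted p = 0.021), 1 each of 15. Slc2a4 gave -0.40, adjusted p = 0.77 and Slc2a2 was not tested. Of the pentose phosphate and gluconeogenesis genes 4 of 11 were higher, Taldo1, G6pdx, the entry enzyme (0.63, adjusted p = 0.016), Fbp1 (3.70, adjusted p = 0.022) and Fbp2 (1.93, adjusted p = 6.4e-04), and Pgls did not pass (-0.083, adjusted p = 0.81). Glycogen genes were higher in 2 of 8, Pgm2 (1.03, adjusted p = 0.0036) and the synthase gene Gys1 (0.91, adjusted p = 0.0054), while Pgm1 (0.48, adjusted p = 0.13) and Ugp2 (0.39, adjusted p = 0.069) did not pass. None of 10 HIF subunits and regulators passed, with Epas1 at -0.80, adjusted p = 0.21, Vhl at 0.27, adjusted p = 0.31, Cited2 at -0.49, adjusted p = 0.28 and Hif3a not tested. Of 35 other HIF targets 3 were higher, the lipid droplet gene Plin2 (1.36, adjusted p = 0.0047), Vldlr (1.86, adjusted p = 0.0041) and Fam162a (1.34, adjusted p = 0.023), and 2 lower (Stc2 and Rbpj), and Angptl4 did not pass (0.21, adjusted p = 0.77).

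In line-derived tumours against cultures, other HIF targets were higher in 14 and lower in 3 of 36, with Lox, the collagen crosslinking enzyme made by fibroblasts (7.97, adjusted p = 4.3e-06), and, beside Wsb1 and Anln among the lower, Tfrc, the transferrin receptor (-2.68, adjusted p = 3.1e-06), as those of smallest adjusted p. Plin2 (-0.31, adjusted p = 0.26) and Angptl4 (0.12, adjusted p = 0.84) did not pass. Glycogen genes were higher in 4 of 10, Ppp1r3c, Pygl (7.01, adjusted p = 5.3e-07), Ppp1r3b (2.10, adjusted p = 1.3e-04) and Pgm2 (1.66, adjusted p = 1.4e-04), and Pgm1 was not (0.056, adjusted p = 0.87). HIF subunits and regulators were higher in 3 of 10, namely Epas1 (3.28, adjusted p = 0.038), Vhl (0.76, adjusted p = 0.031) and Egln2 (1.06, adjusted p = 2.4e-04). Other glycolysis genes were higher in 2 and lower in 1 of 9, with Hk3, a hexokinase of leukocytes (7.10, adjusted p = 1.5e-05), Gapdh (0.95, adjusted p = 8.3e-04) and Adpgk (-0.78, adjusted p = 0.005). Carriers and pyruvate genes were higher in 4 of 16, Slc2a10, Pdk2, Slc2a9 (2.55, adjusted p = 3.4e-04) and Pdk3 (0.64, adjusted p = 0.018), and Slc2a4 was not (1.16, adjusted p = 0.38). Pentose phosphate and gluconeogenesis genes were higher in 1, Pgls (1.30, adjusted p = 8.4e-04), and lower in 1, Pck2 (-1.62, adjusted p = 1.5e-04), of 10, and G6pdx did not pass (-0.064, adjusted p = 0.76). Over all 6 lists 28 of 91 genes were higher and 5 lower in tumours than in cultures, beside 20.1% and 8.99% of all genes, while between UPPL and BBN primary tumours 11 of 86 were higher and 3 lower, beside the 5.71% and 12.8% given above.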

How the data were processed

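RNA was isolated with RNeasy and stranded mRNA libraries were made with TruSeq, per the labels' protocols. The submitters' processing notes name RSEM, Picard 1.64, SAMtools and mm9, without the role of each. The deposited signal values are gene estimates that the authors scaled in each library to an upper quartile of 1000 (998.9 to 1000 among values above 0). Whole reads were recovered from the step between low values, with 92.7 to 96.8% of values whole to within 0.05 of a read. Levels are therefore relative, and low values in tumours are imprecise.

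The logarithm log2(value + 1) was modelled by limma with an intensity trend (version 3.58.1, R 4.3.3). Genes entered with 10 units or more in as many libraries as the smallest group holds, 3 where cultures took part. Separate fits were made for the primary tumours, the 10 line-derived tumours, the 26 UPPL and BBN tumours, and the 10 line-derived tumours with 3 cultures and the line as a factor. The Benjamini-Hochberg threshold was 0.05 over all genes. Nothing in the labels says that tumours of 1 line came from separate cultures, so p-values measure the spread between these samples, which may be technical. Alternatives were edgeR 4.0.16 quasi-likelihood on recovered reads, other scalings, filters and pseudocounts, a replicate block, and leaving out libraries. Leaving out the coarse libraries outside the primary comparison, and leaving out each line with its culture, were chosen after seeing the data. Members and lists were chosen with earlier results of these data known. Per comparison, values are given for up to 12 members with the smallest adjusted p among those past the threshold and for Hif1a, Slc2a1, Vegfa, Ldha, Pgk1 and Car9. For other lists the first 2 genes are named, with at most 2 more of lowest adjusted p, and a few further genes were named after their values were seen. On simulated data the primary fit recovered 63% of 2-fold and 84% of 4-fold changes, and the fit of tumours and cultures 18% and 79%. Those data were drawn from 1 mean profile shared by all libraries, with 100 genes changed 2-fold and 100 changed 4-fold. Only genes above a set mean level were changed, and differences between lines and coarse libraries were not simulated. The recovered shares are therefore not the power of the real comparisons. Plots were drawn with matplotlib 3.10.9, and intervals came from scipy 1.17.1 under Python 3.11.15, with tables handled by pandas 2.3.3 and numpy 2.4.6. One allele of the UPPL genotype label is not reported here.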

Additional observations from a re-analysis of the deposited data

Results flagged for a closer look

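In the groups of 4 UPPL1541, 4 MB49 and 9 UPPL primary tumours, 6 of 111 gene and group pairs had 1 tumour far from the rest (Dixon's test at 95%, which chance flags in about 1 of 20). In 4 of the 6 the library was the same, MB49 line-derived tumour 2, which was highest in Egln1 with 4948 units, in Bnip3 with 5441, in Bnip3l with 3575 and in Ndrg1 with 7275. The next highest MB49 tumours held 1587, 3268, 2396 and 3598 for these genes. Egln1 in UPPL1591 was the lowest of its group with 919, and Bnip3l in UPPL1595, a coarse library, with 1029.

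The UPPL minus BBN difference differed between line-derived and primary tumours by the test of the difference itself in 11 genes. These log2 values, line-derived minus primary, were -1.45 for Hk1, -2.58 for Hk2, -1.15 for Gpi1, -2.32 for Pfkp, -1.57 for Aldoa, -1.45 for Pkm2, -4.52 for Egln3, -3.59 for Ero1l, -3.66 for Bnip3, -4.77 for Ndrg1 and -1.98 for Mxi1.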

How the results depend on the processing

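Of 5329 gene values under alternatives 4840 kept their direction and side of the threshold, 340 lost a call, 149 gained one and 0 changed sign with a call. Leaving out 1 library gave 4 to 13 higher genes between primary tumours, 3 to 17 higher in BBN963 line-derived against BBN primary tumours, 1 to 5 higher and 0 to 6 lower in UPPL1541 line-derived against UPPL primary tumours, 1 to 3 higher and 11 to 22 lower in UPPL1541 against BBN963, and 2 to 11 lower in the difference of differences. Without the coarse libraries these counts were 3, 4, 4 and 2, 2 and 11, and 0. Median-of-ratios scaling gave 14 higher genes between primary tumours, 3 higher and 10 lower in UPPL1541 line-derived against primary tumours, and 18 lower in the difference of differences. edgeR gave 1 higher and 9 lower in UPPL1541 line-derived against primary tumours and 1 higher in UPPL1541 against BBN963, quantile normalization 3 and 1 higher in the same 2 comparisons, and the stricter filter 3 higher in the first. In the difference of differences 1 gene was higher with a pseudocount of 10, and 1 higher and 17 lower without primary tumours UPPL1541 and BBN963. Tumours against cultures gave 1 lower gene with a mean for each of the 6 groups and 1 without the BBN963 line. In single lines Hk1 was -0.089 in UPPL1541 and Ndrg1 -0.41 in MB49 (log2, tumours minus culture), against 0.90 and 2.31 over the 3 lines. The cause of these shifts was not tested, although leaving out tumours leaves fewer to estimate the spread. Same-numbered line-derived tumours of 2 lines correlated at -0.093 to 0.066 over 8 pairs, and 1 of 10 tumours was closest to its own number. Each line was centred on its own mean, so the 2 BBN963 tumours mirrored each other and their pairs could hardly show a pairing. With the number as a block the calls were 12 higher and 14 lower for UPPL1541 against MB49. They were 2 and 14 for UPPL1541 against BBN963, and 15 and 3 for BBN963 against MB49. Low values in tumours, where the most frequent low value was up to 19 reads, limit the precision of Eno2, Slc2a3 and Car9.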
